A study of Mus musculus with 2 samples.

Results

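The 41 genes described here encode the proteasome of the mouse: 17 subunits of the proteolytic core (Psma and Psmb genes), 6 ATPases of the regulatory particle (Psmc), 13 non-ATPase regulatory subunits (Psmd), 4 activators (Psme) and the core assembly factor Pomp. They were taken by gene symbol from the 21938 protein-coding genes of the GENCODE vM21 annotation, all 41 were found there, and each was sorted by whether a MAFK binding region had its summit, the position of highest signal, within 10 kb of any annotated start site of the gene. The regions come from chromatin immunoprecipitation and sequencing (ChIP-seq) with an antibody to MAFK, a small MAF transcription factor, in ES-E14, a mouse embryonic stem cell line of strain 129/Ola from a male embryo. There was 1 group of 2 biological replicates of this single cell line, with no treatment or second genotype named, and the control library was not analysed here. Both replicates carry the same biosample identifier, so the spread between them may be partly technical. Binding regions carry no expression, so the identity of the cells was not checked against marker genes.

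The proteasome degrades proteins tagged with ubiquitin. Its core is a stack of rings in which alpha subunits gate the entry and beta subunits line the chamber, some of them as proteases. A regulatory particle caps the core: its ring of ATPases unfolds substrates, and its non-ATPase subunits bind ubiquitin, remove it and hold the particle together. The activators open the core without the ATPases. Small MAF proteins lack an activation domain and bind DNA as dimers. Paired with cap'n'collar factors such as NFE2L1 and NFE2L2, they recognise the antioxidant response element, and NFE2L1 is known as the factor that raises proteasome genes when proteasome activity falls. MAFK dimers can also act as repressors, so a binding region alone gives no direction of regulation.

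Of the 40 distinct regions near these genes, 23 held the core of the antioxidant response element within 50 bp of the summit. The core was searched on both strands as TGACNNNGC or TGAGNNNGC, and each sequence below reads 5′ to 3′ on the strand that holds the core, on mm10 (GRCm38), with the core in capitals. The first set shows the 7 regions that carried the NFE2-type composite element, in which the core overlaps an AP-1 site and continues into the bases of a MAF site, with no mismatch. They were chosen because they spanned all 4 classes of subunit.

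Psma3: gagactaaagTGACTCAGCacccggggctg
Psma5: cgatattttcTGAGTCAGCaaaaggatgga
Psmb10: ctcagggaccTGAGTCAGCactcagggaag
Psmc1: cacctactacTGAGTCAGCattaaatatgc
Psmd7: ggcgcgcccgTGACTCAGCagccctgcgcc
Psmd11: tcacacacagTGAGTCAGCagcaccatagc
Psme1: ggctcagagaTGACTCAGCagtcaagaccc

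The 3 of these within 1 kb of a start site were Psma3 (chr12:70974949-70974978, minus strand, in an intron), Psmd7 (chr8:107588221-107588250, plus strand, in a noncoding exon) and Psmd11 (chr11:80428844-80428873, minus strand, in an intron). Their cores lay 245, 223 and 169 bp downstream of the nearest start site of the gene. The Psma5 element (chr3:108258271-108258300, minus strand) lay 1360 bp into the gene, in an intron, and the summit of its region was in repeat sequence. The Psmc1 element (chr12:100116111-100116140, minus strand) lay in an intron of Psmc1, at an offset of -3808 bp from the closest of its 3 start sites, where a negative value is upstream. The Psmb10 element (chr8:105929468-105929497, plus strand) was in an intron of another gene, Pskh1. The element listed under Psme1 (chr14:55586225-55586254, plus strand) was intergenic and in repeat sequence, and its region was counted for both Psme1 and Psme2.

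A second set is shown because its cores sat in regions within 1 kb of proteasome start sites and missed the composite element by 1 base. These are from Psmc5 (chr11:106256353-106256382, minus strand), Psmc3 (chr2:91054278-91054307, plus strand), Psmd1 (chr1:86064852-86064881, minus strand), Psmd12 (chr11:107479712-107479741, minus strand) and Psma5 (chr3:108257486-108257515, minus strand).

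Psmc5: agggcggcgcTGACACAGCagatccagtcc
Psmc3: gagagtccagTGACTCGGCaggagaagatg
Psmd1: tcacccgcccTGACTCAGCtaaacgccggc
Psmd12: ctccacgccgTGACTCAGCccctggcgccc
Psma5: ggattagcggTGACTCAGCgggacaagtgc

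Of the 23 proteasome regions with a core, 11 had one with the bases TCA in the 3 free positions (47.8%). Such a core contains the AP-1 heptamer. Over all 10149 core-bearing regions of the list that share was 56.7%, and over all core-bearing regions within 1 kb of a protein-coding start it was 43.8%.

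A further set shows 4 regions of high signal that differ from these, from 50 bases before to 50 after the summit, read on the plus strand. They are the strongest region near Psma3 (chr12:70969116-70969216), both regions upstream of Psmb3 (chr11:97702447-97702547 and chr11:97703192-97703292) and the strongest region of Psmc2 (chr5:21786746-21786846). Capitals mark an antioxidant response element core where there is one.

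Psma3 distal: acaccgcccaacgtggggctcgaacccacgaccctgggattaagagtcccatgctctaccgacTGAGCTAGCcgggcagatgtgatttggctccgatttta
Psmb3 upstream: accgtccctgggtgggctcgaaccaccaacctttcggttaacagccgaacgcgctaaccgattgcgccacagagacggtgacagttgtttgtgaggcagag
Psmb3 proximal: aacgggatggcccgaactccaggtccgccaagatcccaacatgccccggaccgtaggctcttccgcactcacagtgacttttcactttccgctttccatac
Psmc2: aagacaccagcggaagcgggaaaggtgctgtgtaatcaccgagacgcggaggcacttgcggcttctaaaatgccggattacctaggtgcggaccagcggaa

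The first 2 of these windows lie over transfer RNA genes. In the RefSeq annotation of the same assembly, the Psma3 summit lay inside a tRNA-Lys gene (chr12:70969120-70969192, minus strand) and the upstream Psmb3 summit inside a tRNA-Asn gene (chr11:97702449-97702522, minus strand). The core capitalised in the Psma3 window fell within the tRNA gene itself, and the Psmb3 windows held none. Transfer RNA genes were common under the MAFK regions as a whole: 234 of 403 on the assembled chromosomes were overlapped by a region, and the 232 regions concerned had a median signal of 70.6, against 27.9 over the whole list. A core was present in 8.62% of those 232, against 60.3% of all regions. The part of the tRNA genes in these signals was not tested.

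Of the 41 proteasome genes, 27 had a region within 10 kb (65.9%, 95% Wilson interval 50.5 to 78.4%), where 26.9% of all protein-coding genes did. Within 1 kb the count was 19 (46.3%, 32.1 to 61.3%), beside 8.66% of all genes. These intervals cover counting error only, and genes that share a region are not independent. Leaving out every region over a tRNA gene gave the same 2 counts, 27 and 19. The counts use every annotated start, of which some lie inside the gene. With the starts of protein-coding transcripts only, 26 genes had a region within 10 kb (63.4%, beside 23.0% of all genes). Within 1 kb it was 17 (41.5%, beside 7.20%). The plot of the share of genes by distance gives the other limits: within 500 bp 39.0% of the proteasome genes had a summit and 6.33% of all genes, and within 50 kb 82.9% and 59.3%.

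**Figure D1:**
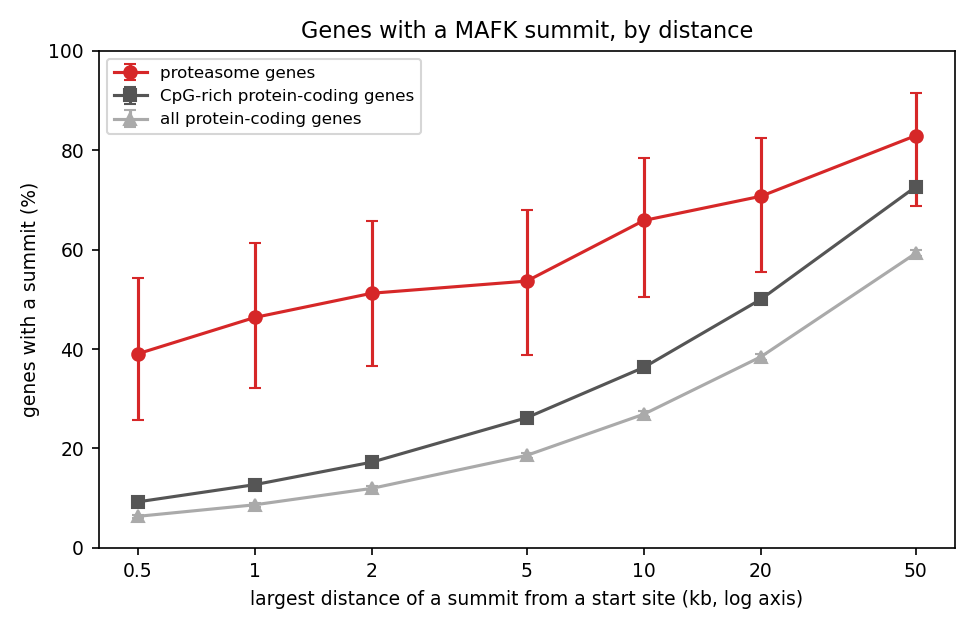
The share of genes (vertical axis, %) with a MAFK summit within a given distance of a start site (horizontal axis, kb, log scale) for the 41 proteasome genes, all protein-coding genes and those with a CpG-rich start; bars are 95% Wilson intervals, which cover counting error only. The proteasome genes lie above both backgrounds from 500 bp (39.0% against 6.33% of all genes) to 20 kb, and at 50 kb their interval includes the share of CpG-rich genes.

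Proteasome genes differ from other genes in ways that bear on such a count. They had a median of 6 annotated start sites against 3 over all genes, 28 of 41 had a CpG-rich start (68.3% against 46.0%), and 11 had a start of another gene on the opposite strand within 1 kb (26.8% against 12.3%). Among genes with a CpG-rich start, 36.3% had a region within 10 kb and 12.7% within 1 kb, and of the 28 proteasome genes of that kind 19 and 14 did. Among genes with 2 to 4 start sites the share within 10 kb was 22.3%, and 10 of 14 proteasome genes had a region. With 5 to 9 start sites it was 37.4% and 11 of 20, and with 10 or more 48.9% and 5 of 6. The single proteasome gene with 1 start site, Psmc5, had a region, as did 14.4% of genes of that kind.

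The optimal list, which the authors derived from both replicates, holds 16865 regions, and 84.3% of them are 296 bp wide. Lists of each replicate alone hold 7748 and 9541 regions. The signal of a region is the authors' score, whose scale is not stated in the sources used here, so it is used only to rank regions within a list, and values of the pooled list and of each replicate's list are not on a shared scale. Read depth is unknown.

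Counts within 10 kb and strongest signals are given by class here, where 26.9% of all protein-coding genes had a region. Of the 6 ATPases 5 had one (83.3%, 43.6 to 97.0%), with a median strongest signal of 65.0, at the 83.1st percentile of the list. Of the 17 core genes 10 had one (58.8%, 36.0 to 78.4%), with a median of 30.4, at the 54.7th percentile. For the non-ATPase subunits it was 7 of 13 (53.8%, 29.1 to 76.8%) with a median of 34.4. All 4 activators had one (100%, 51.0 to 100%) with a median of 20.7, but Psme1 and Psme2 share theirs. The intervals of the classes overlap, and the counts do not separate one class from another. The signals overlap as well, from 18.8 to 90.2 for the ATPases and from 6.30 to 107 for the core genes. The ATPase median is the value of the Psmc1 region 5346 bp from a start, which is nearest to Nrde2. Over all 27 genes the median strongest signal was 32.2, close to the 31.3 of the strongest regions of all protein-coding genes that had one.

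**Figure D2:**
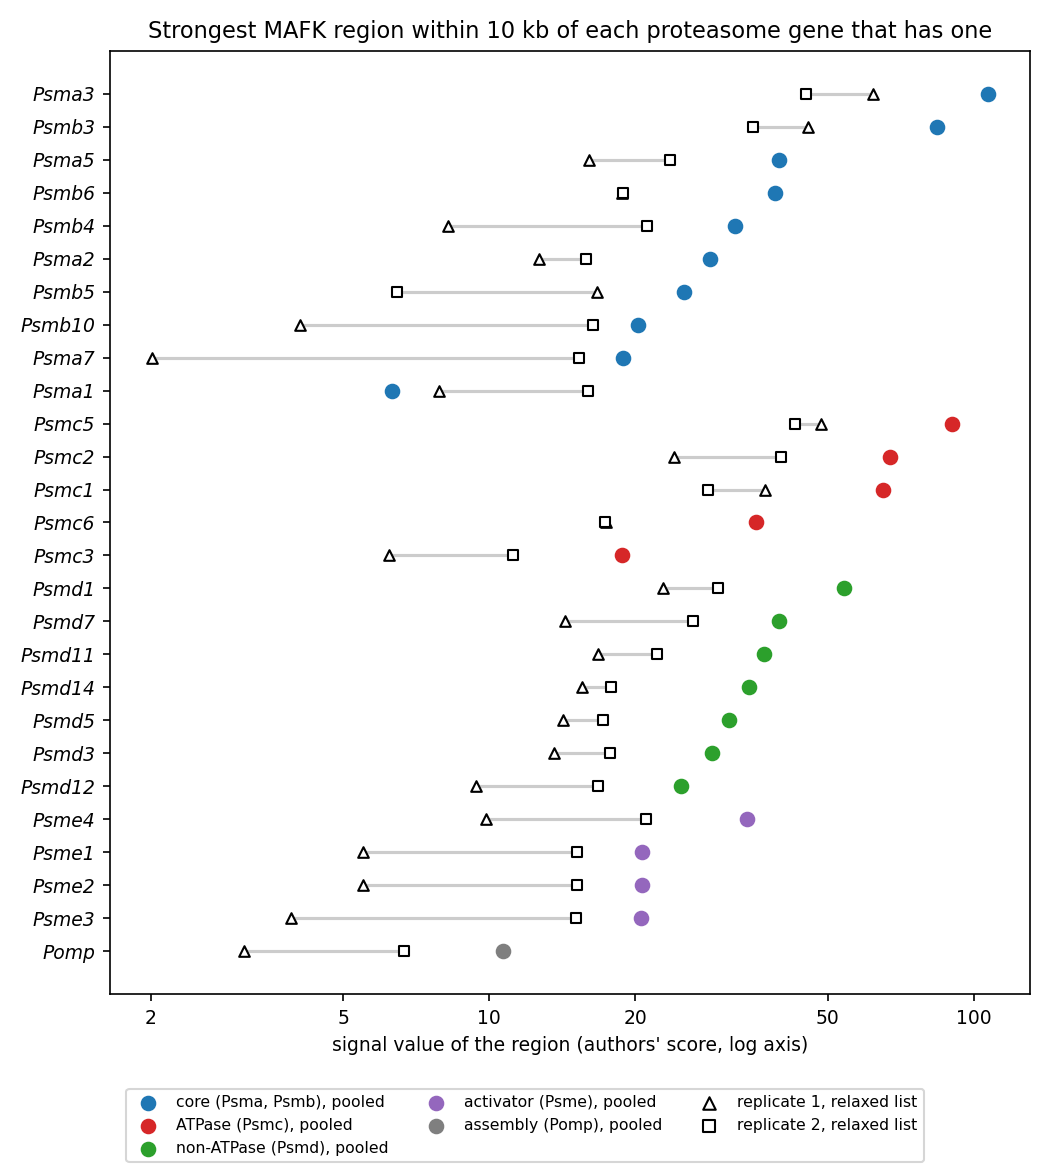
Signal of the strongest MAFK region within 10 kb of each of the 27 proteasome genes that have one (authors' score, log axis); filled circles are the pooled list coloured by class, triangles and squares the overlapping relaxed regions of replicate 1 and replicate 2. Psma3 (107 in the pooled list) and Psmc5 (90.2) lead, and Psma1 (6.30) is lowest in the pooled list.

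The alpha subunits form the outer rings of the core, and 5 of the 7 had a region, each with at least one within 1 kb of a start. Psma3 had the highest signal of any proteasome gene, 107 for the tRNA-Lys region 5455 bp upstream, with 62.1 in replicate 1 and 45.0 in replicate 2. Its second region, 278 bp downstream of a start and with the composite element printed above, had a signal of 35.9 in the pooled list, 23.9 in replicate 1 and 13.0 in replicate 2. Without the tRNA region, 35.9 was the highest signal near Psma3.

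Psma5 carried 3 regions in its introns, 532, 1334 and 2639 bp downstream of the nearest start. All 3 held a core and were within 1 mismatch of the composite element. The farthest was the strongest, with a signal of 39.6, 16.1 in replicate 1 and 23.6 in replicate 2. The nearest had 30.4, 10.1 and 20.6 in the same order. The middle one, with the exact composite element, was the weakest at 13.6, with 3.74 and 9.09.

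Psma2 had a region 103 bp downstream of a start, at a signal of 28.6, with 12.7 in replicate 1 and 15.8 in replicate 2, and no core within 50 bp. Psma7 had one with 18.9, where replicate 1 reached 2.01 and replicate 2 reached 15.3. Replicate 1 had a relaxed region of 9.13 within 1 kb of a Psma7 start. The optimal region lay 405 bp downstream of a start inside the gene, toward its 3′ end. Its summit was at 180037083, and the gene spans chr2:180036374-180042433 on the minus strand. Psma1 had the weakest, at 6.30, at percentile 1.19 of the list, although the authors' scaled score for reproducibility was at its highest value of 1000. The relaxed lists gave 7.87 in replicate 1 and 16.0 in replicate 2 there. Psma4 and Psma6 had no region, with the nearest summits 33515 and 59375 bp away.

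The beta subunits build the inner rings, and 5 of the 10 had a region. Psmb3, which has no catalytic site, had the strongest of them: 83.9 for the tRNA-Asn region 902 bp upstream (45.5 in replicate 1 and 35.1 in replicate 2) and 70.6 for the region 157 bp upstream (28.0 and 41.1). The second does not overlap a tRNA gene, so Psmb3 kept a region of high signal without the first. No core lay within 50 bp of either summit, and the nearest were 56 and 186 bp away.

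Psmb6, one of the catalytic subunits, had a region 38 bp upstream of its start with a signal of 38.9, and the replicates gave 18.8 and 18.9. Its core, at 15 bp upstream, had 3 mismatches to the composite element. A second region, 8700 bp upstream and nearest to Vmo1, had 26.2, with 11.2 in replicate 1 and 12.6 in replicate 2, and no core within 50 bp. Psmb4 had a region 1904 bp upstream, in repeat sequence, with 32.2. Psmb5, the subunit that bortezomib inhibits, had 2 regions 7859 and 8875 bp downstream, with signals of 25.3 and 20.3, both nearer to another gene. The remaining catalytic subunit of the standard core, Psmb7, had none, with the nearest summit 77598 bp away.

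The immunoproteasome subunits Psmb8, Psmb9 and Psmb10 replace the standard catalytic subunits after interferon. Psmb8 and Psmb9 had no region within 10 kb, with the nearest summits 76714 and 62542 bp away. Psmb10 had one with a signal of 20.3, 4.07 in replicate 1 and 16.4 in replicate 2, inside an intron of Pskh1 and nearest to the start of Ctrl. In the beta class Psmb1 and Psmb2 had none either, at 78573 and 42660 bp.

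Among the ATPases, Psmc5 had the strongest region with an antioxidant response element core at a start site. Its signal was 90.2 in the pooled list, 48.5 in replicate 1 and 42.8 in replicate 2, and the summit lay 188 bp into the gene, in an intron (chr11:106256254-106256442). The region ranked 1593 of the 264306 relaxed regions of replicate 1 and 1883 of 300000 in replicate 2. Most of those regions fall below the thresholds, as the thresholded lists hold 7748 and 9541. In the optimal list its signal was at the 89.9th percentile. Psmc2 had a region of 67.1 in a coding exon, 1513 bp downstream of a start, with 24.1 and 39.9 in the replicates. That region held neither a core nor a MAF core nor an AP-1 site within 50 bp. A weaker region of 14.8 lay 610 bp upstream in an intron of Dnajc2, with 14.4 in replicate 2 and none in replicate 1.

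Psmc1 had 4 regions, the most of any proteasome gene. Their signals were 65.0 (5346 bp downstream of a start, nearest to Nrde2), 49.5 (the composite element in the intron), 33.5 (3 bp from a start) and 14.5 (2330 bp downstream). The first 3 were in the lists of both replicates. In replicate 1 they had 37.1, 24.1 and 23.4, and in replicate 2 they had 28.3, 23.9 and 14.3. The last had 10.6 and 2.72.

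Psmc6 had a region 6266 bp upstream with 35.6, nearest to Ero1l, where the replicates gave 17.4 and 17.4. Its core had 1 mismatch to the composite element. Psmc3 had 18.8 at 3 bp from a start, with 6.20 and 11.2 in the replicates. Psmc4 was the ATPase without a region, with the nearest summit 64728 bp away.

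Of the 7 non-ATPase genes with a region, 6 had one within 1 kb. Among genes with a region within 10 kb, 4 of 5 ATPases, 7 of 10 core genes and 1 of 4 activators did too. Over all protein-coding genes it was 1899 of 5898. The other non-ATPase gene with a region, Psmd5, an assembly chaperone of the ATPase ring, had it at 1122 bp with 31.3. Psmd1, the large scaffold subunit of the base, was the strongest at 54.1, with 22.8 in replicate 1 and 29.7 in replicate 2 and a summit 25 bp upstream of a start. Its core lay 4 bp upstream of the start. The next were the lid subunits Psmd7 (39.6, with 14.4 and 26.4, at 190 bp downstream) and Psmd11 (36.9, with 16.8 and 22.2, at 183 bp downstream), both with the exact composite element.

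Psmd14, the deubiquitinase of the lid and the partner of Psmd7, had 34.4 at 20 bp downstream, with 15.6 and 17.8 in the replicates and no core within 50 bp. A second region of 3.95 at 235 bp overlaps it, near the bottom of the list. Psmd3 had 28.9 at 26 bp, and Psmd12 had 24.9 at 246 bp upstream and 12.6 at 128 bp downstream, the weaker one with the core printed above. Psmd11 had a further region with a core 9512 bp downstream, at 22.9, with 6.79 and 16.6 in the replicates.

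Non-ATPase genes without a region were Psmd2, the other large base subunit (nearest summit 21029 bp), the ubiquitin receptor Psmd4 (13144 bp), the lid subunits Psmd6 (232620 bp), Psmd8 (38189 bp) and Psmd13 (25449 bp), and the assembly chaperone Psmd9 (11215 bp). Psmd4 and Psmd9 lay just outside the 10 kb limit, and Psme3 and Psmb5, whose nearest summits were at 9092 and 7859 bp, lay inside it.

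All 4 activator genes counted as having a region, but only Psme4, which encodes a nuclear activator of a single chain, had one within 1 kb. Its signal was 34.1, with 9.86 in replicate 1 and 21.0 in replicate 2, at 934 bp downstream in an intron. Psme1 and Psme2, neighbours that encode the alpha and beta chains of the interferon-induced activator, shared 1 region of 20.7 that was nearest to Emc9, with 5.49 and 15.2 in the replicates. Psme3, the nuclear relative, had a region of 20.6 in a coding exon of Aoc2, nearest to Aoc3. It lay past the end of Psme3, 9092 bp from the closest of its 4 start sites, which is inside the gene. Within 5 kb of a start the count of activators was 2, and within 2 kb it was 1. With the starts of protein-coding transcripts only, it was 3 within 10 kb. Pomp, which guides assembly of the core, had a weak region with 10.7, and 3.12 and 6.67 in the replicates. Its summit (chr5:147870435) was 50 bp from a start site inside the gene, which begins at 147860461 on the plus strand.

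**Figure D3:**
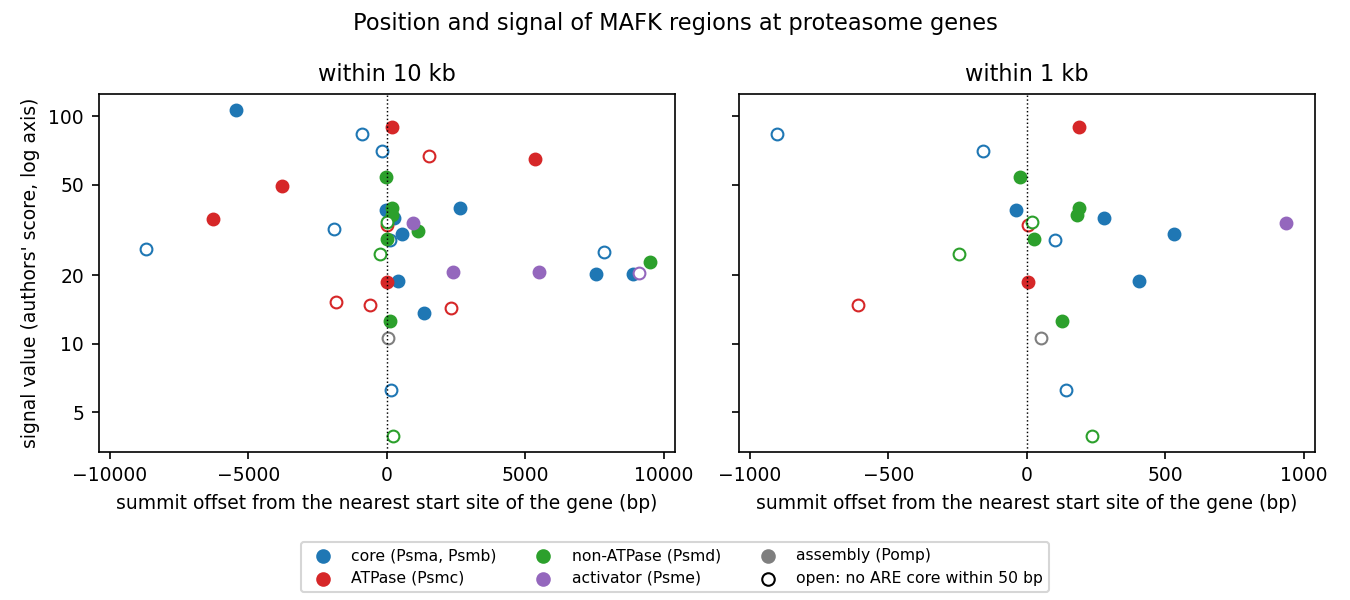
Summit position relative to the nearest start site of the gene (horizontal axis, bp, positive is downstream) against signal (authors' score, log axis) for every region within 10 kb, left, and within 1 kb, right; filled points have an antioxidant response element (ARE) core within 50 bp, and a region near 2 members appears for each. In the right panel 16 of 22 points lie downstream of the start, 8 of them between 100 and 300 bp.

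Of the 40 regions, 22 lay within 1 kb of a proteasome start, and 16 of these were downstream of it (72.7%), where 38.3% of all 1986 regions within 1 kb of a protein-coding start were. Between 100 and 300 bp downstream there were 8 of the 22, against 8.11% of all promoter regions. The median summit position was 76.5 bp downstream, against 67 bp upstream for all promoter regions, whose median offset was -67. When the nearest start of any protein-coding gene was used for the proteasome regions too, 17 were downstream and the median was 115.5 bp. All annotated starts were used, and some lie inside the gene, as at Psma7 and Pomp. Positions relative to the starts of protein-coding transcripts only are not given.

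Of the 12 promoter regions with a core, 5 had it between 100 and 300 bp downstream: Psmd12 at 150, Psmd11 at 169, Psmc5 at 214, Psmd7 at 223 and Psma3 at 245 bp. A further 3, at Psma7, Psma5 and Psme4, were farther downstream, at 406, 575 and 931 bp. The other 4, at Psmb6, Psmc3, Psmd1 and Psmd3, were within 15 bp of the start. Over the 912 promoter regions of the list with a core, 8.11% had it 100 to 300 bp downstream and 33.2% had it 100 bp or more downstream. The 12 are few, and the 5 at 100 to 300 bp come from core, ATPase and non-ATPase genes.

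By annotation, 17 of the 40 summits were in introns, 13 were intergenic, 4 were in UTRs, 3 in coding exons and 3 in noncoding exons. The nearest start site belonged to a proteasome gene for 31 and to another gene for 9. Of the strongest region of each gene, 20 were nearest to that gene and 7 to another, so the count of 27 includes genes whose region may belong to a neighbour. Sequence marked as repeat in the assembly held 6 of the 40 summits and none of the 22 within 1 kb.

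**Figure D4:**
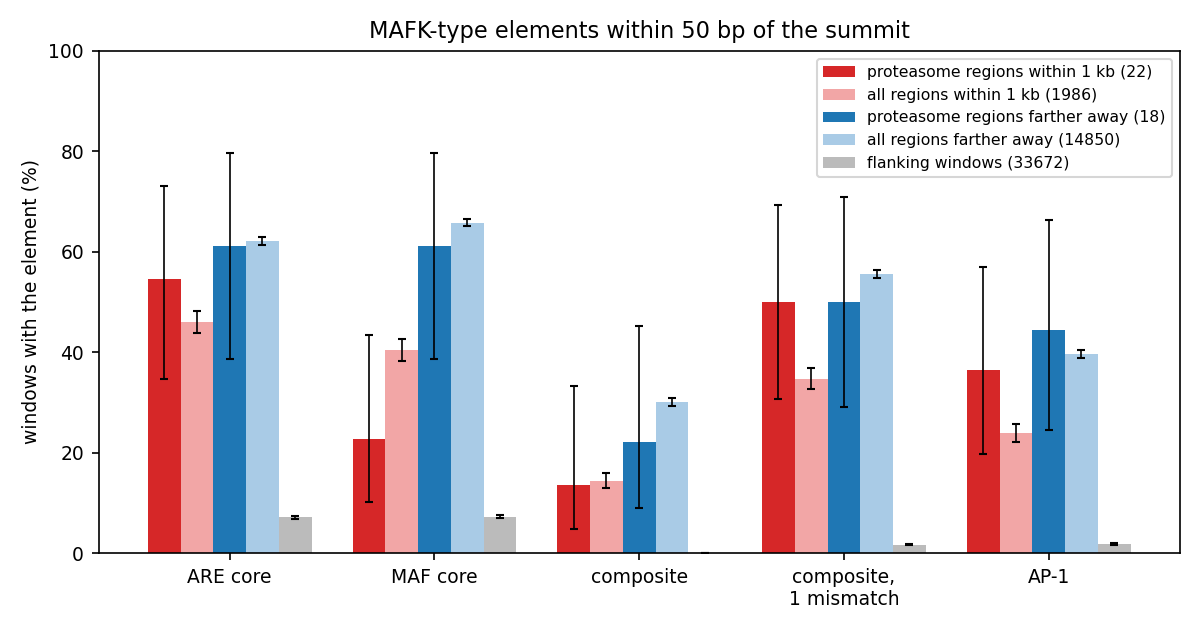
Share of regions (vertical axis, %) with each element within 50 bp of the summit, for proteasome regions within 1 kb of a start and farther away, all regions of the same 2 kinds and windows 1000 bp to either side of every summit; bars are 95% Wilson intervals for counting error. The ARE core is in 54.5% of the 22 near proteasome regions and in 45.9% of all near regions, and the MAF core in 22.7% and 40.4%.

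The elements at proteasome regions were set beside those of all MAFK regions at a like distance. Within 1 kb of a start, 12 of 22 held the antioxidant response element core (54.5%, 34.7 to 73.1%), beside 45.9% of all promoter regions, and farther away 11 of 18 did (61.1%), beside 62.2%. Windows 1000 bp from each summit held it in 7.15%. The MAF core, TGCTGA, was in 5 of 22 proteasome promoter regions (22.7%, 10.1 to 43.4%), beside 40.4% of all promoter regions and 7.29% of flanking windows. The AP-1 heptamer, TGACTCA or TGAGTCA, was in 8 of 22 (36.4%), beside 23.9% and 1.81%. It can overlap the core, as in the sequences above. With 22 regions the intervals are wide, and for each of these 3 elements the interval includes the share of all promoter regions.

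The exact composite element was in 3 of the 22 (13.6%), beside 14.4% of all promoter regions, and with 1 mismatch allowed in 11 of 22, beside 34.7%. The T-MARE palindrome with 2 mismatches allowed was in 2 (9.09%), beside 21.7%. Common promoter elements were rare at these summits: the ETS element CCGGAAGT was in 1 of 22, and the GC box GGGGCGGGG, the CCAAT box CCAAT, the CREB-type element TGACGTCA and the nuclear respiratory factor element with 1 mismatch were in none. Over all promoter regions these were in 1.61%, 2.32%, 12.5%, 0.604% and 1.61%. A match describes the letters within 50 bp of the summit only.

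The composite element was also searched around the start sites, whatever the regions. The form with up to 1 mismatch was within 500 bp of a start in 13 of the 19 genes with a region within 1 kb and in 14 of the 22 without (68.4% and 63.6%). Over all protein-coding genes the shares were 54.3% and 29.4%. Proteasome genes have more annotated start sites, and so more searched sequence.

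The replicates differed in how many proteasome genes passed their thresholds. In the list of replicate 1 alone, 12 of 41 proteasome genes had a region within 10 kb (29.3%), beside 13.7% of all genes, and in the list of replicate 2 alone 21 did (51.2%), beside 17.4%. The list of replicate 1 is shorter. Optimal regions that overlapped both replicates' lists were near 9 of 41 (22.0%), beside 11.2%. The non-ATPase subunits had a region in 1 of 13 genes in replicate 1, in 6 of 13 in replicate 2, and none had an optimal region in both. The replicates' lists come from another processing run than the optimal and relaxed lists, and membership did not follow relaxed signal. Psmd1, with 22.8 in replicate 1, was not in its list, and Psme4, with 9.86, was. By relaxed signal within 1 kb, 6 of 13 non-ATPase genes were at or above the 90th percentile of genes in replicate 1 and 7 in replicate 2. The ATPases had 4 of 6 by each of these 3 counts, and the core genes 6, 7 and 4 of 17. The activators had 1, 4 and 1 of 4.

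Of the 40 regions, 17 overlapped the list of replicate 1 (42.5%) and 27 that of replicate 2 (67.5%), where over the whole optimal list 44.3% and 52.9% did. The share in both lists was 32.5%, against 35.4%, and 9 regions were in neither. Before thresholding, 39 of the 40 overlapped a relaxed region in both replicates. The exception was the weaker Psmc2 region, 610 bp upstream, which had none in replicate 1. The relaxed lists hold 264306 and 300000 regions and were the input of the reproducibility step. Overlap with them was therefore close to fixed in advance, and no share over the whole optimal list is set beside it.

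The relaxed lists, which the authors made as input for the reproducibility step, allowed the genes below the threshold to be ranked too. Each gene was given its strongest relaxed region within 1 kb of a start and its percentile among all protein-coding genes. The median of the 41 genes was 85.5 in replicate 1 and 92.7 in replicate 2, and 37 and 36 of them were at or above the 50th percentile. At or above the 90th percentile there were 17 and 22. The percentiles of the 41 genes in the replicates had a Spearman rho of 0.785, beside 0.595 over all genes. This is a description across genes, which are not independent and share the same 2 libraries.

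**Figure D5:**
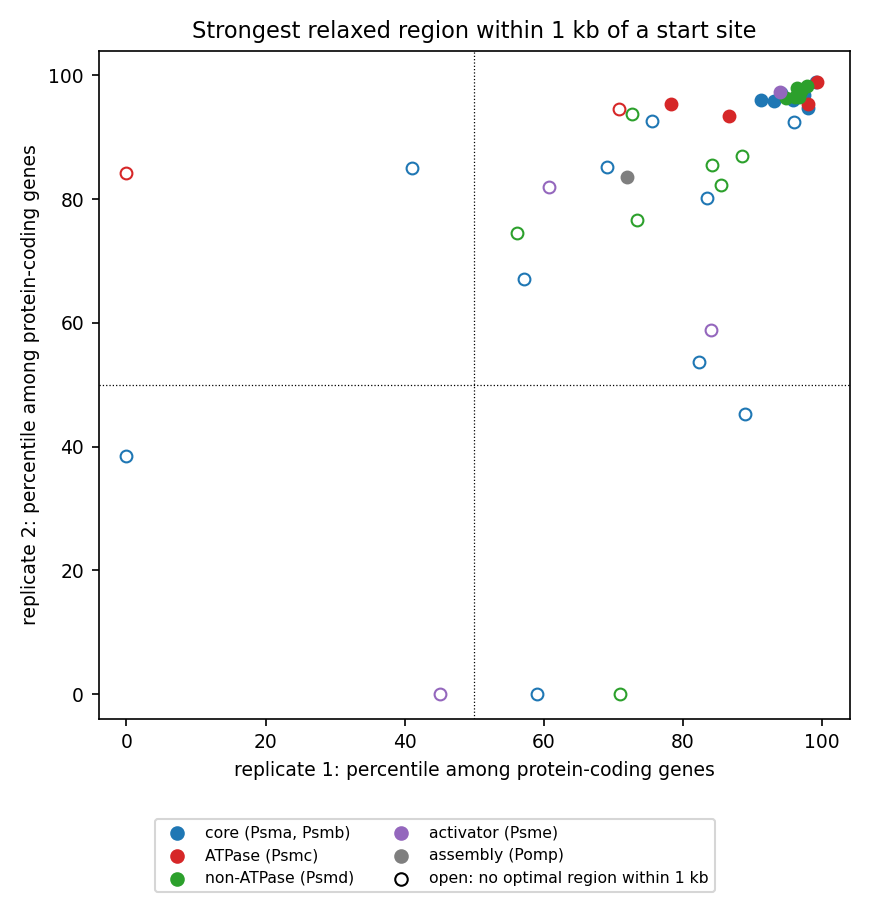
Percentile among all protein-coding genes of the strongest relaxed region within 1 kb of a start, in replicate 1 (horizontal axis) and replicate 2 (vertical axis), for each of the 41 proteasome genes; open points have no optimal region within 1 kb and dotted lines mark the 50th percentile. Most points lie in the upper right (37 and 36 of 41 at or above the 50th percentile), and genes with no relaxed region lie at 0.

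The 14 genes without an optimal region within 10 kb had median percentiles of 74.5 in replicate 1 and 81.3 in replicate 2. Psma6 was the highest of them in replicate 1, at 95.9, with 92.4 in replicate 2. Psmd13 was the highest in replicate 2, at 93.8, with 72.7 in replicate 1. Psmb7 followed in replicate 2 at 92.7, with 75.6 in replicate 1. Psmc4 had no relaxed region in replicate 1 and stood at 84.3 in replicate 2, and Psmd2 was at 71.0 in replicate 1 with none in replicate 2. Psmb8 was at 88.9 and 45.3. A relaxed region within 1 kb of a start was recorded in at least 1 replicate for each of these genes. Over all protein-coding genes, 59.3% had one in replicate 1 and 61.9% in replicate 2. The share of all genes with one in at least 1 replicate is no lower than these and is not given. These lists thus reach most genes, and more sequence was searched for proteasome genes, which have more annotated start sites.

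Other genes of the proteasome and ubiquitin pathway were taken from a list of 36, of which 35 were matched in the annotation. Of these, 19 had a region within 10 kb (54.3%, 38.2 to 69.5%), beside 26.9% of all protein-coding genes. Within 1 kb there were 14, beside 8.66%, and 11 had an optimal region in both replicates' lists, beside 11.2%. Of the roles described here, shuttle factors had regions in 4 of 6, stress adaptors in 3 of 4, the VCP segregase in 2 of 3, assembly chaperones in 2 of 5, associated subunits and deubiquitinases in 2 of 7, NFE2L1 activation in 1 of 3 and alternative subunits in 0 of 2.

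Some of these had higher signal than any of the 41 genes. The assembly chaperone Psmg2 had 213, with 115 in replicate 1 and 99.0 in replicate 2, but the region was nearest to Cep76. The ubiquitin receptor Adrm1 had 199 at 64 bp upstream, with 74.5 and 123. The autophagy receptor Sqstm1 had 121 at 237 bp upstream, with 51.8 and 67.7, though a start of Mgat4b was nearer.

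Lower signals were recorded for Nploc4 (75.8), Psmg4 (73.9), Akirin2 (62.3) and Txnl1 (49.7). The Akirin2 product takes part in the nuclear import of proteasomes. The genes for NFE2L1 itself and for the protease Ddi2 that activates it had no region within 10 kb, with the nearest summits 42297 and 50894 bp away, while Ngly1, which removes its sugars, had 2.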

How the data were processed

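MAFK ChIP-seq of ES-E14 cells was analysed from peak lists on mm10 that the authors deposited, for 1 group of 2 replicates. The text notes deposited with the samples name 2 processing runs. The first gave the relaxed, optimal and conservative lists, and the second gave the thresholded lists of each replicate and of both together. Aligner, caller and filters: not given in the sources used here. The signal of a region and its reproducibility value are scores in the authors' deposited lists, with no stated scale. Read depth is unknown, so no depth interval is given.

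A gene had a region when a summit of the optimal list lay within 10 kb of any GENCODE vM21 start site. A promoter region lay within 1 kb. Per-replicate values are the strongest overlapping region of that replicate's relaxed list. Overlap means any shared base. Each element was looked for in both orientations of the GRCm38 sequence up to 50 bp from a summit, and in windows 1000 bp away. A start was CpG-rich with at least 55% GC and an observed to expected CpG ratio of 0.6 in the 500 bp on either side. Intervals are 95% Wilson intervals. No significance test was run, since the members and lists were chosen with earlier results of these data known. All 41 genes are accounted for, with full values for the 12 genes of highest signal and the strongest of each class. Pathway genes are named from the highest signal down, to at most 10, of which some, like 1 of their roles, are not reported here, and those named beyond that rule (Nfe2l1, Ddi2 and Ngly1) were chosen after their values were seen. Sequences were read from the RefSeq copy of GRCm38 and tRNA genes from its annotation. The search code was tested on simulated data. Python 3.11.15, numpy 2.4.6, scipy 1.17.1 and pysam 0.24.0 were used. Alternatives covered distance, list, start sites, element window and leaving out each replicate. Backgrounds of CpG-rich genes, regions of full reproducibility score and the removal of tRNA regions were chosen after seeing the data.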

Additional observations from a re-analysis of the deposited data

How the results depend on the processing

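Of 98 recomputed values, 73 stayed within 1.5 times the reported count or within its spread and 25 did not. With the strongest 50% of regions, the genes with a region numbered 17 of 41 and the core genes 6, the activators 1. The median percentile of the strongest regions was 32.9 there, ranked anew within the shorter list, so it cannot be set against the 57.9 of the full list. With optimal regions in both replicates' lists the counts were 9 of 41 genes, 4 core, 0 non-ATPase and 1 activator, 11 pathway genes, and 5 at the promoter. Leaving out each replicate in turn gave 12 to 21 genes with a region, 6 to 7 core, 4 in each case for the ATPases, 1 to 6 non-ATPase, 1 to 4 activators, 12 to 15 pathway genes and 8 to 13 genes at the promoter. The lower count in each of these ranges came from leaving out replicate 2. The same runs gave median percentiles, each within its own list, of 26.9 to 43.3, and 58.8 to 59.3% of regions with the core. Of the non-ATPase genes 12 had a region within 50 kb. The activators numbered 1 within 2 kb, 2 within 5 kb, 1 in the conservative list and 2 at the full reproducibility score. The core was in 35.0% of regions within 25 bp of the summit and 72.5% within 100 bp, beside 48.7% and 65.7% of all regions, and the cause of that difference was not tested. In every setting with a background over genes the share of all 41 genes with a region was above that of all protein-coding genes, which the non-ATPase class was not with replicate 1 alone or with both lists required, nor the activators in the conservative list. No paired analysis was possible because there is 1 group and no second condition. Read depth is unknown, and 2 replicates of 1 line limit what the spread can show.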
